A study of Homo sapiens with 8 samples.

Results

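The SIX-family homeobox genes examined here were SIX2, SIX3, SIX4, SIX5 and SIX6, 5 of 20090 protein-coding genes taken from the GENCODE annotation of GRCh37. Each gene was measured over its body plus the 2000 bp before its start, and the 5 windows together spanned 41.627 kb. The genes were chosen by family name, and H3K27me3 and H3K4me3 islands over them were compared between inhibitor and vehicle. SIX-family proteins are homeodomain transcription factors that work with EYA co-activators and DACH proteins in the PAX-SIX-EYA-DACH network of organ development. H3K27me3 is deposited by the Polycomb repressive complex PRC2, whose catalytic subunit is EZH2, and marks silenced developmental genes, whereas H3K4me3 marks the starts of genes that are active or held ready. In differentiated cells many developmental homeobox genes lie under broad H3K27me3, and some carry both marks.

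The cells were PC9, a human lung adenocarcinoma line, held for 5 days in DMSO vehicle or in GSK126, a small-molecule inhibitor of EZH2, at 1 μM. ChIP-seq was done for both marks with 2 libraries per treatment, 8 in all, and fly chromatin with an antibody to a fly histone was added to each reaction as an internal reference. All groups come from this 1 cell line, and the study describes its replicates as biological, although the labels do not tie libraries to cultures. The deposited lists hold islands, which are stretches of enriched 200 bp windows joined across short gaps by the program SICER. In the spike-in lists, tags had been removed at random until the fly tags matched, and in the standard lists until the human tags matched. The study reports that matching fly tags reduced the human tags of the inhibitor-treated H3K27me3 libraries. Islands in the spike-in GSK126 lists of this mark were thus called on fewer human tags than in DMSO. How much of any island loss follows from the lower tag number was not tested. H3K4me3 in DMSO has 1 list per replicate that serves both normalizations, which makes 14 lists. Replicates are compared as the authors' library pairs. With 2 pairs a sign-flip test cannot give a p below 0.5, and an exact permutation of 2 against 2 libraries cannot go below 0.333 (two-sided), so values and their spread are given without p-values.

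The depth of each list is not recorded in it. H3K4me3 islands covered 70.8 to 85.2 Mb in the replicate 1 lists and 34.9 to 40.0 Mb in the replicate 2 lists, and a lower value in replicate 2 at these genes stands beside that difference. H3K27me3 islands covered 275 and 300 Mb in DMSO and 127 and 133 Mb with GSK126 in the spike-in lists, against 279 and 258 Mb and 241 and 189 Mb in the standard lists. Around the gene starts, H3K4me3 was present in both DMSO libraries at 4 of 5 epithelial markers, 1 of 3 lung markers (NKX2-1), 0 of 4 blood markers, 1 of 2 fibroblast markers (COL1A1) and 1 of 3 neural markers (MAP2).

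The 5 genes fell into 3 patterns in untreated cells. SIX6, a gene of eye and pituitary development, lay wholly under H3K27me3 and held no H3K4me3 island. SIX4 and SIX5, which are expressed in many tissues and act in muscle among others, had H3K4me3 at the start and no H3K27me3 island over the gene or its upstream region. SIX2, which keeps nephron progenitors undifferentiated, and SIX3, a forebrain and eye regulator, had H3K4me3 islands of high rank in their lists. These met or held H3K27me3 islands of lower rank in theirs, except at SIX3 in replicate 2. There the high-ranking island ended before the gene start, and the H3K27me3 island overlapped a lower-scoring H3K4me3 island over the gene. At SIX3 the H3K27me3 island was missing from the standard list of DMSO replicate 1. The plot of covered share by library shows these patterns and their change.

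**Figure D1:**
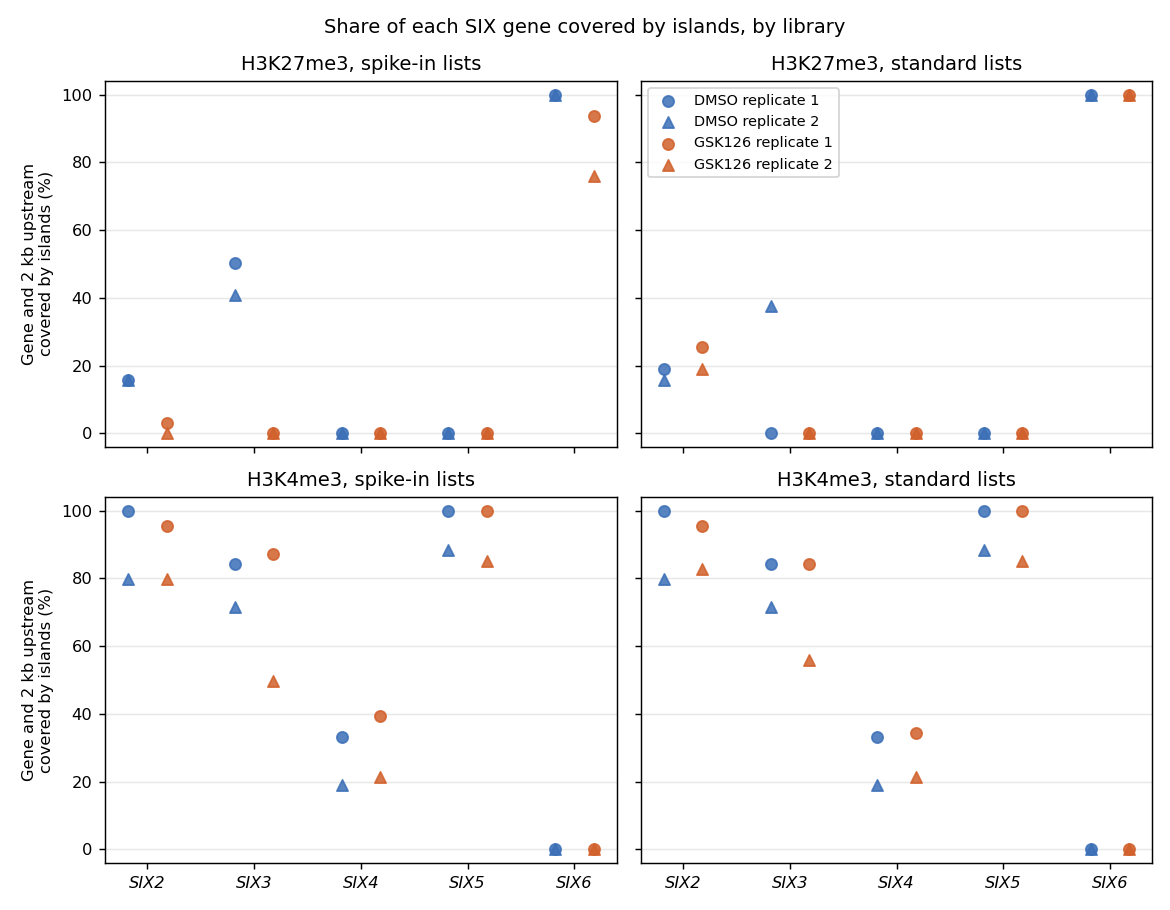
Share of each gene body plus 2 kb upstream covered by islands (y axis, %), for the 5 genes (x axis), in each mark and normalization; each point is 1 library, blue for DMSO and orange for GSK126, circles for replicate 1 and triangles for replicate 2. In the spike-in H3K27me3 lists the orange points of SIX2, SIX3 and SIX6 lie below the blue ones, and SIX6 keeps 93.5% and 76%; H3K4me3 points of the same replicate lie close together except at SIX3 in replicate 2.

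In the stretch just before the gene start, SIX6 stood apart from the other members. Over the 250 bases before SIX6, all 8 H3K27me3 lists covered the whole stretch, GSK126 lists included, and none of the 6 H3K4me3 lists touched it. Over the same stretch of SIX2 and of SIX5, all 6 H3K4me3 lists covered every base and none of the 8 H3K27me3 lists covered any. SIX3 was covered by H3K4me3 over 96% to 100% of its stretch and by H3K27me3 in 1 list, over 16%. SIX4 was covered by H3K4me3 over 52.4% to 100% and by no H3K27me3 island. The sequences before SIX6, under H3K27me3 alone, and SIX5, under H3K4me3 alone, are shown for comparison of their CpG content, with each CG dinucleotide in capitals, 5′ to 3′ on the gene's strand in GRCh37. 
SIX6 (chr14:60975614-60975863, plus strand): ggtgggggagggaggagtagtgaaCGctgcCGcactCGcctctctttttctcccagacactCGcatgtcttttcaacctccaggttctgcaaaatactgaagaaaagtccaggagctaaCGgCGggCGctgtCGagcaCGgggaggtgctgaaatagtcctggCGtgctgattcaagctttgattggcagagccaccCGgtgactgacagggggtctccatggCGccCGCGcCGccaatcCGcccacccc
SIX5 (chr19:46272511-46272760, minus strand): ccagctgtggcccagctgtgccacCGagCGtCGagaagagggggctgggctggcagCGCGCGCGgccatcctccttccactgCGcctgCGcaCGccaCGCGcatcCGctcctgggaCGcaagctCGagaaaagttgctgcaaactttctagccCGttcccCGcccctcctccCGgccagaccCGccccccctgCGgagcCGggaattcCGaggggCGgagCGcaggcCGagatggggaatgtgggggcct
The CpG count of SIX6 lay between those of genes marked by H3K4me3. The stretch before SIX6 held 16 CG dinucleotides at 60% G and C, between SIX5 with 25 and 70.8% and SIX4 with 11 and 58%. SIX2 held 26 at 65.6%. The motif CG reads the same on both strands, and 96.3% of 20086 such stretches before protein-coding genes held at least 1, with a median of 14 (quartiles 5 and 23). As many as SIX6 or more were found in 45.1% of them, as many as SIX4 in 58.0%, as many as SIX5 in 22.3% and as many as SIX2 in 20.0%. These are descriptions of 4 sequences, and no link between CpG content and either mark was tested.

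SIX6 (ENSG00000184302, chr14:60975864-60979568, plus strand, 2 exons) had its whole window under H3K27me3 in DMSO, at 100% in both libraries of both normalizations. In the spike-in lists the share with GSK126 was 93.5% and 76%, a mean difference of -15.2 ± 12.4 points (SD, n = 2 pairs). Both inhibitor libraries were below both vehicle libraries, and replicate 2 lost more. The bases lost lay at the end of the gene. The upstream 2000 bp, the 5′ UTR, the coding exons and the intron stayed at 100% in both GSK126 libraries, while the 3′ UTR was covered over 77% and 14.6%. All 4 libraries of the standard lists covered 100% of the window.

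The H3K27me3 island over SIX6 shrank from both sides. In the spike-in lists it ran from chr14:60972401-60980200 (7.8 kb) and chr14:60972601-60986600 (14 kb) in DMSO, and over chr14:60973201-60979200 (6 kb) and chr14:60973001-60978200 (5.2 kb) with GSK126. Its score, which grows with enrichment and length, ranked at the 75.0th and 80.5th percentile of all islands of the DMSO lists. A percentile is used because scores of lists with different tag numbers are not on 1 scale, and it is not compared between treatments because the lists differ in length. A second island, from -16.1 to -11.7 kb relative to the gene start and over the pseudogene SALL4P7, was listed in both DMSO libraries and in neither GSK126 library of the spike-in lists. It remained in both GSK126 standard lists. SIX6 lies inside the annotated body of C14orf39 on the other strand, and an island cannot be assigned to either gene by strand.

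The share of its H3K27me3-covered length that SIX6 kept within its window was above the median of covered genes. Of 5352 genes with at least 1000 bp under H3K27me3 in both DMSO libraries of the spike-in lists, the median kept 32.4% in replicate 1 and 29.9% in replicate 2, and 35.0% and 37.2% kept none. SIX6 stood at the 91.5th percentile in replicate 1 and the 78.9th in replicate 2. In the standard lists, where less was lost, the median of 4888 such genes was 91.5% and 75.8%, against 100% at SIX6 in both replicates. A window at 100% cannot show a gain in length, so the score and length of the island were read as well. In replicate 1 of the standard lists it scored 233 over 8 kb in DMSO and 305 over 11.8 kb under the inhibitor. In replicate 2 it scored 259.2 over 7.8 kb in DMSO and 198.8 over 6.6 kb under the inhibitor, so the replicates differed in direction for the whole island. The part of the island score that falls to the gene window, if the score is shared evenly over the island, was lower under the inhibitor in both replicates. It went from 165.9 to 147.3 in replicate 1 (log2 ratio -0.17) and from 189.6 to 171.8 in replicate 2 (-0.14). This part is not a count within the window. In replicate 1 the score was shared over a longer island, so the lower value does not show less signal over SIX6. SIX2 is not among the genes compared because 991 bp of its window were covered. The SIX6 window lies inside the DMSO island, so loss outside the window is not counted there. Over SIX6 with 50 kb on either side, the spike-in lists kept 41.1% and 28.6% of the DMSO length. These values stood at the 63.7th and 53.2nd percentile of genes with the same flanks, whose medians were 27.9% and 25.1%. The histogram of length kept shows where SIX6 and SIX3 lie among all covered genes.

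**Figure D2:**
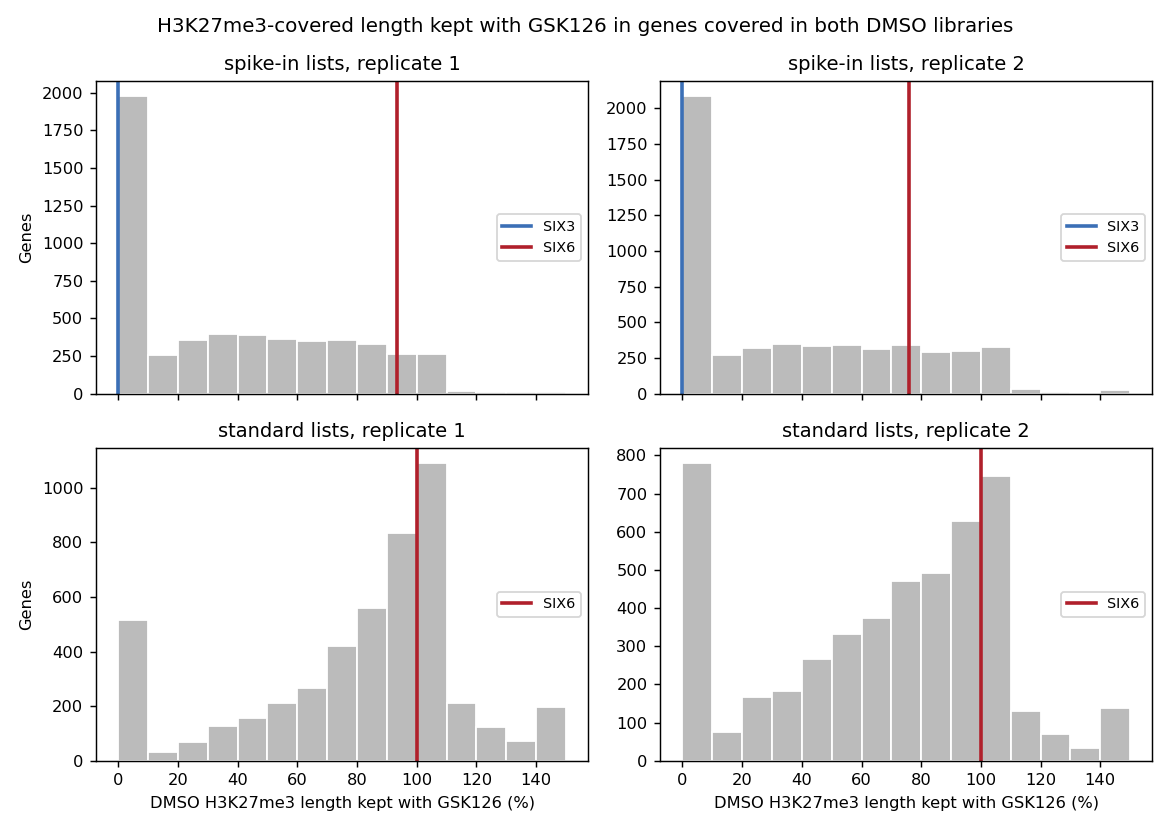
Number of genes (y axis) by the share of the DMSO H3K27me3 length that was covered with GSK126 (x axis, %, in steps of 10, larger values gathered in the last step), for genes with at least 1000 bp covered in both DMSO libraries; lines mark SIX6 in red and SIX3 in blue, panels are normalization and replicate. SIX6 lies at 93.5% and 76% in the spike-in lists and at 100% in the standard lists. SIX3 lies at 0 in the spike-in lists and is not among the genes of the standard lists, where DMSO replicate 1 had no island over it.

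SIX3 (ENSG00000138083, chr2:45168841-45173210, plus strand, 2 exons) lost its H3K27me3 island in the spike-in lists. H3K27me3 covered 50.2% and 40.8% of the window in DMSO and 0% in both GSK126 libraries, a mean difference of -45.5 ± 6.66 points (n = 2 pairs). The groups did not overlap. The DMSO island lay at chr2:45168801-45172000 in replicate 1 and chr2:45169601-45172200 in replicate 2, over the intron (100% in both), the coding exons (100% and 64.2%) and little of the 3′ UTR (7.91% and 23.1%). With GSK126 the nearest island was 34.16 kb and 110.56 kb from the gene start.

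The island at SIX3 was a weak one. It ranked at the 29.9th and 35.0th percentile of its lists, with a score of 67.2 where the lowest in the list was 41.3, and 82.5 where the lowest was 42.7. When islands were required to score at least 2 times the lowest of their list, none remained at SIX3 in any library, and the difference was 0 points. Whether so weak an island would drop out through the lower tag number of the GSK126 lists alone was not tested. Among the standard lists the island was found in DMSO replicate 2 alone, over 37.7% of the window, with 0% in the other 3 libraries.

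SIX2 (ENSG00000170577, chr2:45232321-45236591, minus strand, 2 exons) had H3K27me3 only upstream of its start. The share of the window under H3K27me3 was 15.8% in both DMSO libraries of the spike-in lists and 3.05% and 0% with GSK126, a mean difference of -14.3 ± 2.15 points (n = 2 pairs). Both inhibitor libraries were lower. The edge of the DMSO island nearest the gene lay at -1.01 kb relative to the gene start, and the island spanned chr2:45237601-45248200 (10.6 kb) in replicate 1 and chr2:45237601-45248000 (10.4 kb) in replicate 2. With GSK126 it was 2.8 kb long in replicate 1 (chr2:45238401-45241200) and absent in replicate 2. In DMSO it ranked at the 81.7th and 83.0th percentile of its lists.

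In covered length, the standard lists gave the opposite direction at SIX2. H3K27me3 covered 19.0% and 15.8% in DMSO and 25.4% and 19.0% with GSK126, a mean difference of 4.78 ± 2.26 points (n = 2 pairs), and the highest DMSO value equalled the lowest GSK126 value. The island as a whole was not longer there. In replicate 1 it measured 11.2 kb in DMSO and 9.2 kb under the inhibitor. In replicate 2 it measured 10.4 kb in DMSO, and under the inhibitor 4.4 kb, followed by a separate piece of 4 kb. Its edge towards the gene lay at -0.81 and -1.01 kb in the DMSO libraries and at -0.41 and -0.81 kb in the GSK126 libraries, which is where the added share of the window came from. The score within the window, shared out as for SIX6, did not rise. It was 35.9 in DMSO and 35.2 with GSK126 in replicate 1 (log2 ratio -0.03). In replicate 2 it was 35.0 in DMSO and 28.5 with GSK126 (-0.30).

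Across the family, all 3 members that held an H3K27me3 island were lower in both GSK126 libraries than in both DMSO libraries of the spike-in lists, as were 75.0% of the 6456 protein-coding genes with an island. None was higher, against 0.217% of those genes. By standard normalization 0 of 3 were lower (36.5% of 6132 genes) and 0 of 3 were higher (3.62%). With 3 genes, no departure from the shares of all genes can be read. Summed over the 5 windows, H3K27me3 in the spike-in lists covered 9.896 and 9.296 kb in DMSO and 5.528 and 4.337 kb with GSK126, a log2 ratio of -0.97 ± 0.18 (n = 2 pairs), or a change of -44.1% and -53.3% in length. By standard normalization it covered 6.896 and 9.096 kb in DMSO and 7.296 and 6.896 kb with GSK126, and the log2 ratio of -0.16 ± 0.34 was within the spread between replicates.

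SIX3 and SIX2 lie 59.111 kb apart with no protein-coding gene between them, and H3K27me3 lay in patches across the interval. Over the 171.751 kb from 50 kb before SIX3 to 50 kb beyond SIX2, the spike-in lists held 12 islands in each DMSO library, and 3 and 1 with GSK126. The covered length was 69.4 and 65.6 kb in DMSO and 9.2 and 4.6 kb with GSK126. That is 13.3% and 7.01% of the DMSO length kept, at the 36.9th and 37.0th percentile of genes with 50 kb on either side, whose medians were 27.9% and 25.1%. The 3 islands left in replicate 1 and the 1 left in replicate 2 lay at different places, so no H3K27me3 stretch of this region was listed in both GSK126 libraries. The map of the region shows which islands went.

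**Figure D3:**
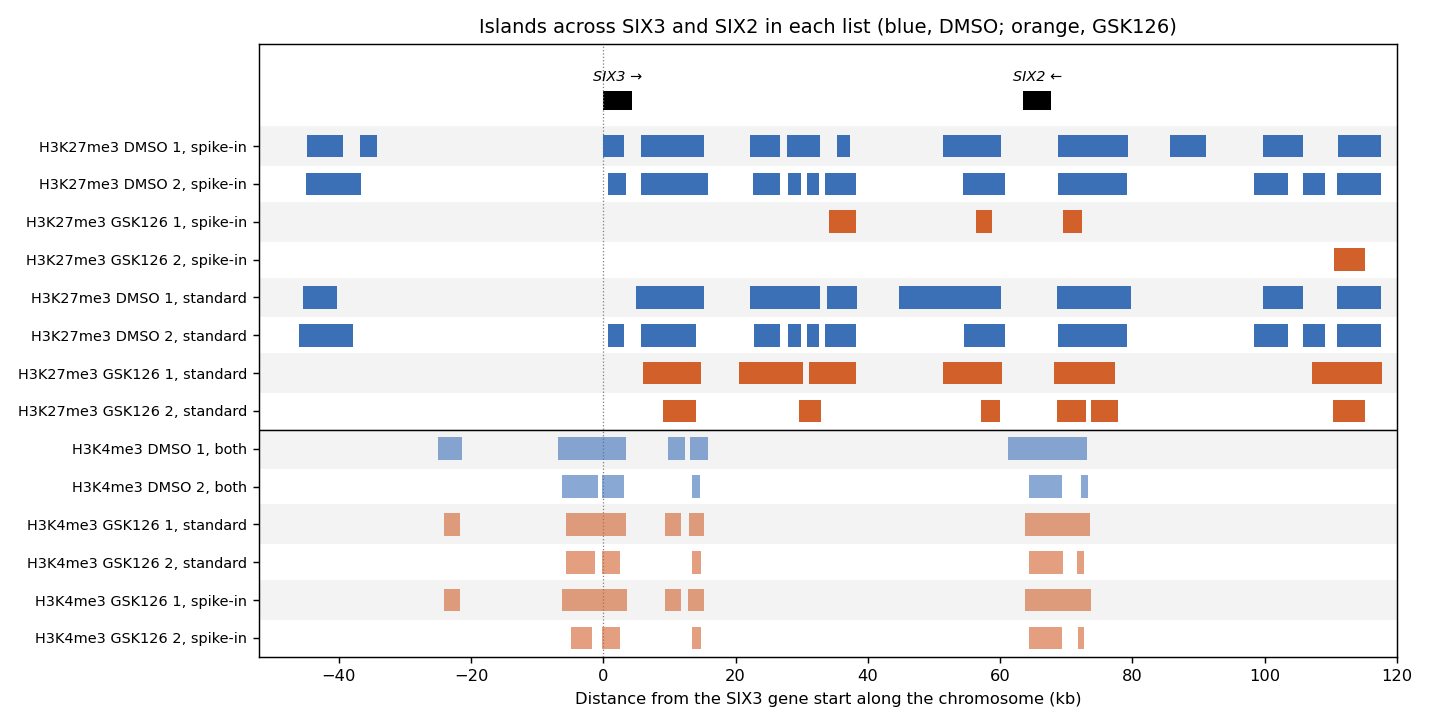
Islands (bars) in each list (rows, H3K27me3 above the black line and H3K4me3 below it) by distance from the SIX3 gene start along the chromosome (x axis, kb); blue is DMSO, orange is GSK126, the number is the replicate, and black boxes are the 2 genes with their direction. In the spike-in rows 12 DMSO islands per library give way to 3 and 1, while the H3K4me3 islands over both genes are in every row.

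The region was also lower in the standard lists. Both libraries of a replicate hold equal human tags there, and the lowest score of the paired lists was the same to 4 digits, so scores can be compared within a replicate. The summed H3K27me3 score over the region was 1494 in DMSO and 853 under the inhibitor in replicate 1, a log2 ratio of -0.81. In replicate 2 it was 1544 in DMSO and 467 under the inhibitor, a log2 ratio of -1.73. Among genes with an island within 50 kb in both libraries of a replicate, the median log2 ratio was -0.10 (10192 genes) and -0.22 (9608 genes). The SIX3 and SIX2 region stood at the 14.7th and 8.97th percentile of these. Genes that lost every island with GSK126 have no ratio and are left out of these percentiles. By covered length, where such genes count, the region kept 77.7% and 38.7% in the standard lists. That was the 43.5th and 29.1st percentile of genes with 50 kb on either side, whose medians were 82.8% and 64.1%. The windows of single genes are shorter than the region of 2 genes. Around SIX6 the summed score was 339 in DMSO and 388 under the inhibitor in replicate 1, a log2 ratio of 0.19. Replicate 2 had 436 in DMSO and 320 under the inhibitor, a log2 ratio of -0.45, so the replicates differed in sign. The histograms of score change show both regions against genes with an island in both libraries.

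**Figure D4:**
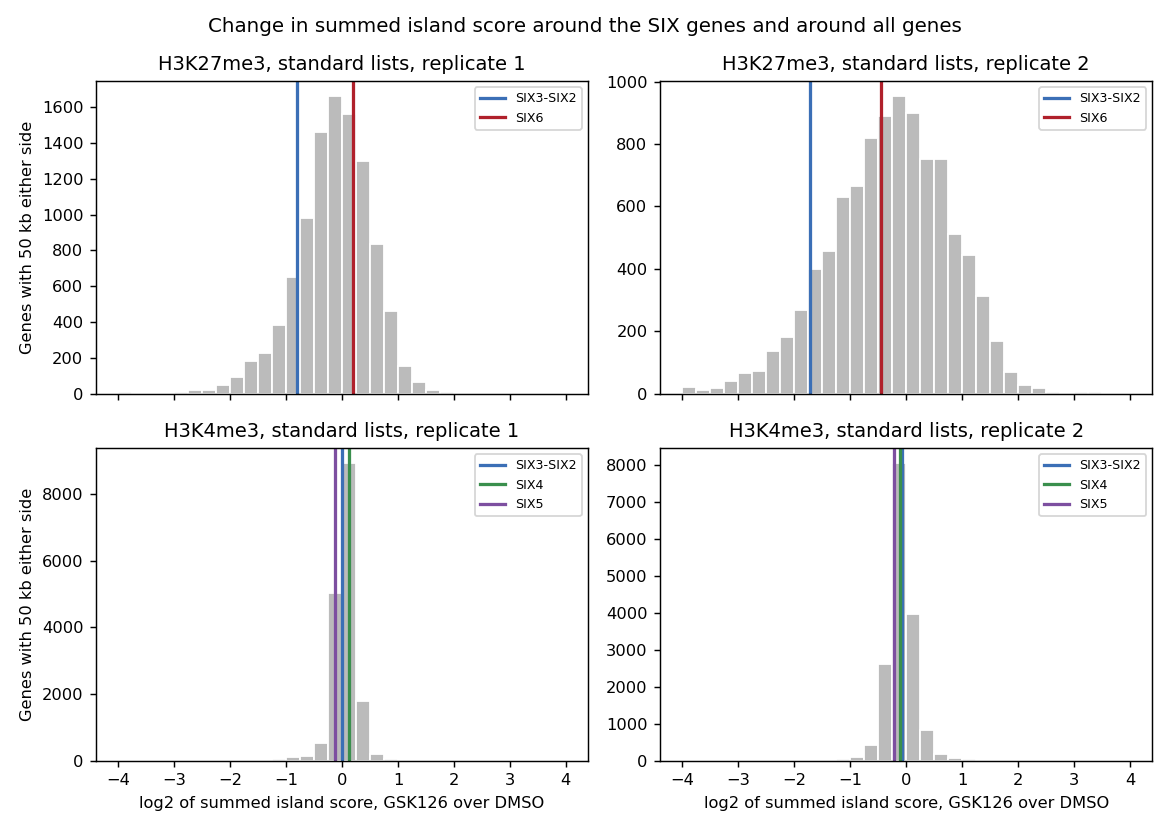
Number of genes with 50 kb on either side (y axis) by the log2 ratio of summed island score, GSK126 over DMSO (x axis, values beyond 4 gathered in the outer steps), in the standard lists; rows are marks, columns are replicates, and lines mark the regions around SIX3 and SIX2, SIX6 (H3K27me3 only), SIX4 and SIX5 where both libraries had an island. Genes without an island in both libraries are not counted. For H3K27me3 the SIX3 and SIX2 line lies left of the median of the genes shown, at -0.81 and -1.73, and for H3K4me3 the lines lie between -0.21 and 0.13.

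SIX4 (ENSG00000100625, chr14:61176257-61191069, minus strand, 3 exons) and SIX5 (ENSG00000177045, chr19:46268043-46272510, minus strand, 3 exons) had no H3K27me3 in their windows in any of the 8 lists. Around SIX4 the nearest H3K27me3 island was 67.269 to 70.869 kb from the gene start in the 4 DMSO lists and the 2 standard GSK126 lists, and 211.869 and 212.869 kb away in the spike-in GSK126 lists. At SIX5 the neighbour MEIOSIN, 0.244 kb away and needed for meiosis in germ cells, carried H3K27me3 over 12.7% and 24.2% of its window in DMSO and 0% in both GSK126 libraries of the spike-in lists. SIX5 overlaps 2 annotated antisense non-coding RNAs, so its islands also cover parts of those genes.

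The windows of SIX2 to SIX5 each held a high-ranking H3K4me3 island in every list. The highest-scoring H3K4me3 island in each of these windows ranked between the 95.0th and 98.9th percentile of its list in all 6 lists. At SIX3 in replicate 2 this island ended before the gene start, and the island over the gene scored lower. The island before the start covered the annotated start of the non-coding RNA LINC01833 on the other strand, so its rank cannot be credited to SIX3. The scores were 582 against 1565 in DMSO. With GSK126 they were 458 against 1350 in the spike-in list and 525 against 1544 in the standard list. At SIX5 the covered share was 100% and 88.3% in DMSO and 100% and 85.2% with GSK126 in both normalizations. At SIX2 it was 100% and 79.7% in DMSO, 95.5% and 79.7% with GSK126 in the spike-in lists, and 95.5% and 82.9% in the standard lists. In each case the spread between replicates exceeded the difference between treatments.

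At SIX3 H3K4me3 covered 84.1% and 71.6% in DMSO, 87.3% and 49.6% with GSK126 in the spike-in lists, and 84.1% and 55.9% in the standard lists. In replicate 2 the window was covered by 2 islands with a gap just before the gene start. In DMSO replicate 2 the islands were chr2:45162601-45168000 and chr2:45168601-45172000, and with GSK126 in the standard list they were chr2:45163201-45167600 and chr2:45168601-45171400. The gap was thus wider with GSK126 and the island over the gene ended earlier, with 80.9% of the coding exons and 81.5% of the intron covered against 100% of both in DMSO. In replicate 1 a single island spanned the gap in all lists. At SIX4 H3K4me3 covered 33.3% and 19.0% in DMSO, 39.3% and 21.4% with GSK126 in the spike-in lists, and 34.5% and 21.4% in the standard lists, and most of the added bases lay inside the gene.

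Under the rule that both GSK126 libraries lie beyond both DMSO libraries, 0 of the 4 genes with H3K4me3 were lower in the spike-in lists (1.62% of 14500 genes) or in the standard lists (1.90% of 14560 genes), and 0 of 4 were higher (0.200% and 0.234%). Because replicate 2 covered much less of the genome, a rule on the direction within each replicate was added after seeing the data. By it 0 of 4 were lower (35.0% of genes in the spike-in lists, 35.5% in the standard lists), and SIX4 was higher in both normalizations (1 of 4, against 7.95% and 6.81% of genes). Both normalizations share the DMSO lists, and in the standard lists the covered length rose only from 5.6 to 5.8 kb and from 3.2 to 3.6 kb. The score within the SIX4 window changed there by log2 ratios of 0.14 and -0.04. With 4 genes, no departure from the shares of all genes can be read. Summed over the windows, H3K4me3 covered 23.699 and 18.47 kb in DMSO, 24.619 and 17.27 kb with GSK126 in the spike-in lists (log2 ratio -0.02 ± 0.11, n = 2 pairs), and 23.619 and 17.87 kb in the standard lists (-0.03 ± 0.03). The summed H3K4me3 score around SIX4 changed by log2 ratios of 0.13 and -0.11, around SIX5 by -0.13 and -0.21, and around SIX3 and SIX2 by -0.0017 and -0.071. Around SIX6 the single small H3K4me3 island of replicate 1, downstream of the gene, scored 33.5 in DMSO, where the lowest score of the list was 31.1. It scored 68.1 with GSK126 in the standard list, a log2 ratio of 1.02, while its length went from 1.6 to 0.8 kb. In DMSO this island covered the annotated starts of C14orf39 and of a non-coding RNA, so it cannot be credited to SIX6. Replicate 2 had none.

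**Figure D5:**
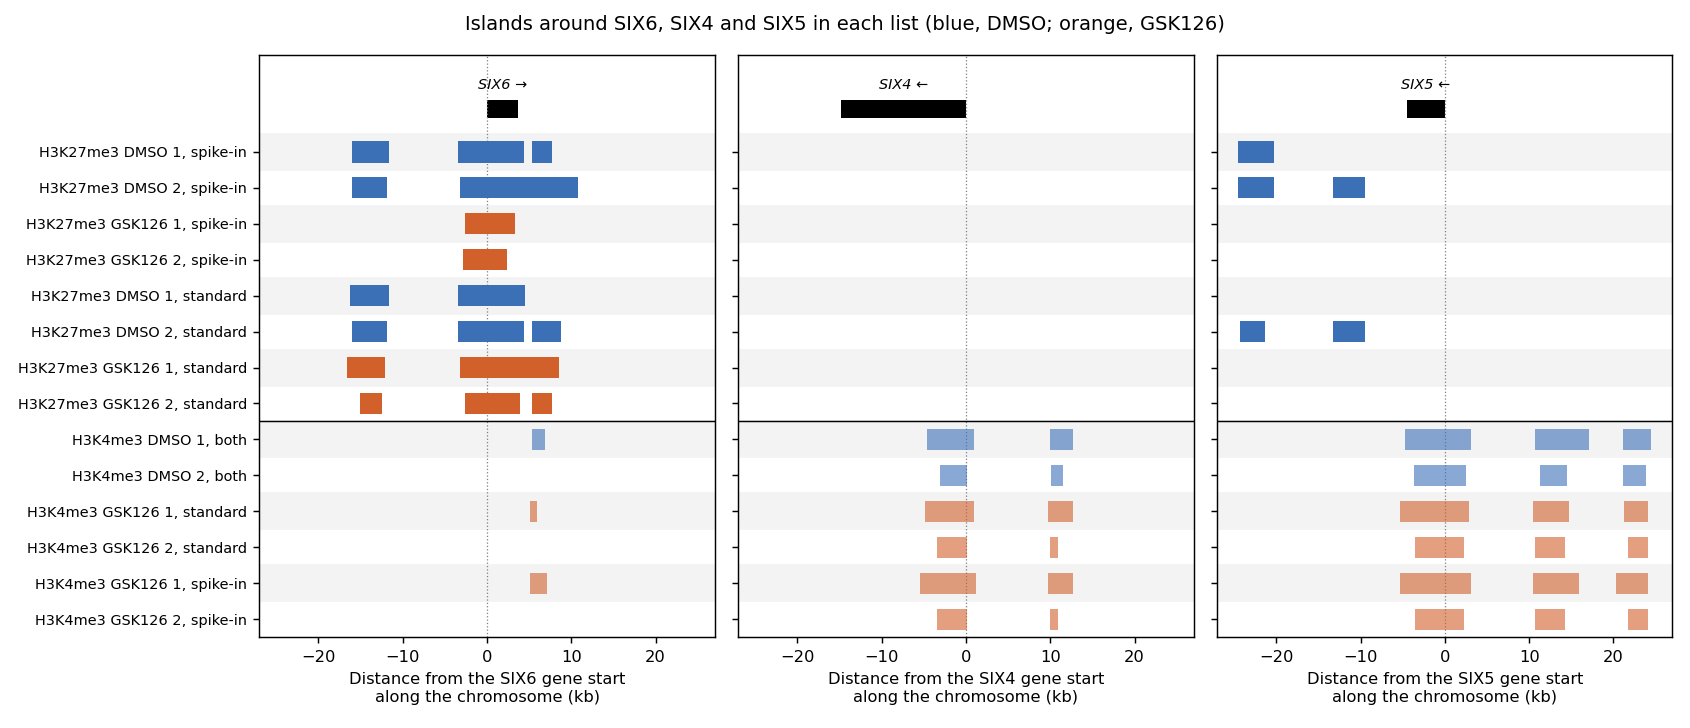
Islands (bars) in each list (rows, H3K27me3 above the black line and H3K4me3 below it) by distance from the gene start along the chromosome (x axis, kb) for SIX6, SIX4 and SIX5; blue is DMSO, orange is GSK126, and black boxes are the genes. The H3K27me3 island over the SIX6 start is in all 8 rows, and SIX4 and SIX5 have H3K4me3 over their starts in all 6 rows. SIX6 has only a small H3K4me3 island in replicate 1, whose near edge lies 5.1 to 5.3 kb downstream of the gene start.

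The overlap of the marks changed at SIX3 and SIX2 in the spike-in lists. Bases under both marks made up 50.2% and 37.7% of the SIX3 window in DMSO and 0% in both GSK126 libraries. At SIX2 they made up 15.8% and 9.57% in DMSO, and 3.05% and 0% with GSK126. The standard lists went the other way at SIX2, with 19.0% and 9.57% in DMSO and 25.4% and 15.9% under the inhibitor. At SIX3 they gave 0% and 37.7% in DMSO and 0% in both GSK126 libraries. At SIX6, SIX4 and SIX5 no base was under both marks in any pairing of the lists. The lists are from populations of cells, and whether both marks sit on the same chromatin fibres was not measured. Within 1000 bp of the gene start in DMSO, with the spike-in H3K27me3 lists, 4.87% of all protein-coding genes (978) held both marks in both libraries, SIX3 among them. SIX2, SIX4 and SIX5 belonged to the 53.1% with H3K4me3 alone and SIX6 to the 12.0% with H3K27me3 alone.

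The DMSO replicates of the standard lists shared 64.4% of the H3K27me3 length listed in either across SIX3 and SIX2, 75% around SIX6, and 0% around SIX5, where only replicate 2 had any (6.8 kb). For H3K4me3 they shared 51.3% across SIX3 and SIX2, 54.8% around SIX4 and 59.7% around SIX5, and at these loci 98.8% to 100% of the replicate 2 length lay inside that of replicate 1. Around SIX6 they shared 0%, since the small H3K4me3 island there was listed in replicate 1 alone.

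Partners of the SIX-family proteins and genes of the same organs were read from lists by known role. Of the 6 partner genes, EYA1 to EYA4 and DACH1 and DACH2, 4 had an H3K27me3 island in the spike-in lists and 1 of these was lower in both GSK126 libraries, against 75.0% of all genes with an island. That gene was EYA2, a co-activator phosphatase, at 59.9% and 65.0% in DMSO and 24.9% and 19.2% with GSK126. DACH1, a corepressor of the network, was at 0.649% and 0.742% in DMSO and 0.881% and 0.696% with GSK126, and EYA1 and EYA3 had no H3K27me3 island.

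Of 5 eye field and retina genes, all with an island, 4 were lower (75.0% of all genes). RAX, an eye field homeobox gene, was at 78.8% and 85.4% in DMSO and 30.2% and 28.0% with GSK126. LHX2, a LIM homeobox gene of the same stage, was at 82.8% and 91.7% in DMSO and 62.0% and 94.6% with GSK126, and its groups overlapped.

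Of 6 nephron genes, 5 had an island and all 5 were lower (75.0% of all genes). GDNF, the growth factor that draws out the ureteric bud, was at 71.6% and 68.0% in DMSO and 12.3% and 22.5% with GSK126. CITED1, a transcriptional co-regulator of the nephron progenitors, was at 100% in both DMSO libraries and 73.5% and 89.4% with GSK126, and OSR1, an early kidney regulator, had no H3K27me3 island.

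Of 5 muscle genes, all with an island, 2 were lower (75.0% of all genes). MYOD1, the myogenic master regulator, was at 100% in both DMSO libraries and at 6.20% and 100% with GSK126, so its replicates disagreed. MYF5 was at 56.9% and 0% in DMSO and MYOG at 0% and 35.7%, with 0% for both genes in both GSK126 libraries.

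Over the 4 lists together 19 of 22 genes had an H3K27me3 island in the spike-in lists, of which 12 were lower (75.0% of all genes with an island) and 0 higher (0.217%). Their median difference was -18.5 points, against -15.5 points over all 6456 genes. By standard normalization 18 had an island, of which 2 were lower (36.5% of all genes) and 0 higher (3.62%), with a median of -0.63 points against -4.15 points. For H3K4me3 13 had an island, of which 1 was lower in the spike-in lists (1.62% of all genes) and 0 in the standard lists (1.90%). The lists are short, and nothing particular to them is read from these counts.

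The genes whose covered shares were most like those of each member over all 14 lists, by mean absolute difference, were found more than 1 Mb away. For SIX6 they were YPEL4, SIGLEC10 and IGLL1, which differed by 0.324 to 0.387 points. For SIX4 they were HNRNPH1, FICD and SS18L2 (0.556 to 0.602 points), and for SIX5 HMGA1, CCNO and H3C2 (0.205 to 0.349 points). SIX2 and SIX3 had no such close match, with PAGR1 and RPS19BP1 at 4.27 and 6.41 points from SIX2 and DOK1, ARSA and RILP at 7.74 to 8.06 points from SIX3.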

How the data were processed

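PC9 cells held for 5 days in DMSO or 1 μM GSK126 were profiled by ChIP-seq for H3K27me3 and H3K4me3, 2 libraries per treatment and mark. BWA was used by the authors to map reads of 50 nt to hg19, and the submitters' processing notes also name SAMtools 0.1.18. They removed duplicates, kept uniquely mapped tags of mapping quality above 25, removed tags at random to match human tags (standard) or fly tags (spike-in) within a replicate, and ran SICER on every library separately with a random background (windows of 200 bp, E-value 1, and a gap of 600 bp for H3K27me3 or 200 bp for H3K4me3). The deposited score of an island is SICER's sum over its windows, which rises with tag number. The lists give no tag counts, so depth per library and counting intervals are not given here.

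From the islands, the length covered over gene body plus 2000 bp upstream was computed with Python 3.11.15 and NumPy 2.4.6 for protein-coding genes of the GENCODE release lifted to GRCh37 (mitochondrial and Y genes left out), and the code was tested on simulated islands. Pairing of libraries follows the authors' removal of tags, since the labels carry no replicate numbers. A gene was called where both GSK126 libraries lay beyond both DMSO libraries, among genes with any island in the 4 lists. Named genes were all 5 members, the nearest neighbours, the 3 genes most alike to each member, and at most 3 per role list (largest and smallest change and first by name). Members and lists were chosen with earlier results of these data known. One marker, PECAM1, and other members of the family were not analysed here, and 1 gene alike to SIX2 and 1 promoter sequence are not reported here. Promoter bases were read from the GRCh37 genome. Alternatives were score and length minimums, other windows, the unpaired ratio, the standard DMSO list, and each replicate left out.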

Additional observations from a re-analysis of the deposited data

How the results depend on the processing

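The log2 ratio of H3K27me3 length over the 5 genes in the spike-in lists was below 0 under every alternative run: it was -0.97 as reported, -0.38 within 1000 bp of the gene starts, -1.24 over gene bodies only, -0.48 with islands of at least 2 times the lowest score, and -0.69 against the standard DMSO lists. Leaving out a replicate gave -0.84 to -1.10. In the standard lists the ratio changed sign, from -0.16 to 0.10 within 1000 bp of the starts and 0.062 with the score minimum, and lay between -0.40 and 0.081 with a replicate left out, the value of 0.081 being replicate 1 alone. The H3K4me3 ratio in the spike-in lists was 0.0084 over gene bodies only and -0.10 to 0.055 with a replicate left out. The cause of these changes was not tested. Without the replicate block, as a ratio of mean lengths, the pairing changed no direction: the values were -0.96 and -0.17 for H3K27me3 and -0.01 and -0.02 for H3K4me3 (spike-in and standard). For single genes 88 of 101 values stayed within the spread between replicates and 13 moved. No H3K27me3 difference of a gene changed sign in 45 values, and 4 of 56 H3K4me3 differences did, none of them called: SIX2 from -2.23 to 0.65 points (spike-in) and from -0.64 to 2.80 (standard) with 5000 bp upstream, SIX2 from -0.64 to 3.19 (standard) without replicate 1, and SIX3 from -9.42 to 3.14 (spike-in) without replicate 2. The 45 values include those of SIX6 in the standard lists, whose reported difference of 0 has no sign to change. That difference was -5.74 points with 5000 bp upstream. A difference that fell to 0 was not counted as a change of sign. SIX2 had no H3K27me3 difference over its gene body or within 1000 bp of its start in the spike-in lists, and SIX6 had none within 1000 bp of its start. Islands are binary calls, so a loss of signal that leaves an island above the calling threshold was not detectable here. A stretch that falls below the threshold is listed as lost even where some signal remains.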
